A study of Mus musculus with 2 samples.

Results

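The genes of the integrated stress response and the unfolded protein response were followed in gastrocnemius (GAS) muscle that lacks GDE5. The set holds 10 genes, Atf4, Ddit3, Xbp1, Trib3, Asns, Chac1, Herpud1, Sesn2, Eif4ebp1 and Fgf21, of 27570 genes on the arrays. They were read from every non-control probe that carries one of these symbols or an alias as its gene name, which gave 14 of 41174 probes. Each gene was taken as its brightest probe, by the mean log signal over both channels of both arrays, and counted as measured where, on each array, WT or Gde5 skKO signal of that probe was well above background. Measured genes were 9 of the 10 members and 13579 of all genes, and Fgf21 was the member that was not measured.

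RNA came from GAS muscle of male C57BL/6 mice, 15 weeks old and on normal diet. Gde5 skKO mice were HSA-Cre;Gde5 flox/flox animals, in which Cre driven by the human α-skeletal actin promoter removes exon 11 of Gde5 (Gpcpd1) in muscle fibers, so that cells other than fibers should keep the gene. The controls are labelled wild-type (WT), and the methods name Gde5 flox/flox littermates without Cre as controls for other tests of these mice, so a Cre transgene may also separate the groups. Each of 2 Agilent arrays was hybridized with WT and Gde5 skKO RNA together, with WT in Cy3 on array 1 and in Cy5 on array 2. The labels name 5 mice per genotype, without saying whether their RNA was pooled, whether both arrays carried the same RNA, or whether the mice were fasted or had received glucose. Every difference below therefore describes 2 hybridizations and not the spread between mice.

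The integrated stress response begins when one of a few kinases phosphorylates the translation factor eIF2, which lowers protein synthesis in general while raising translation of the transcription factor ATF4. ATF4 then switches on genes for amino acid supply, redox control and, under lasting stress, cell death. The unfolded protein response joins the same route through the kinase PERK when proteins misfold in the endoplasmic reticulum (ER), and adds arms run by IRE1, which splices Xbp1 mRNA, and by ATF6. In skeletal muscle this program is known for its activation by mitochondrial disease, starvation and disuse, and for the release of the hormone FGF21.

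ATF4 binds DNA with C/EBP family partners at a composite element, searched here as TGATGNAA on either strand. The window ran from 250 bases before to 50 bases after each gene start in RefSeq (GRCm38.p6), and held 9 of the 10 members, Eif4ebp1 being the one not matched. The element occurred in 5 of these 9 (Trib3, Asns, Chac1, Herpud1 and Fgf21), beside 3.97% of all 32851 windows and 4.51% of all 27025 genes. The set includes known ATF4 targets, so this share describes how the set was composed and is not a result of the arrays. A match is a run of letters and not a binding site. The matches are shown in 30 bases each because they set Chac1, which was called lower, beside members that were not called. Capitals mark the match, and each sequence reads 5′ to 3′ in the direction of the gene.
Chac1, 193 bases before the start, chr2:119351038-119351067 plus strand: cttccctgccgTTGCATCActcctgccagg
Herpud1, 112 bases before the start, chr8:94386306-94386335 plus strand: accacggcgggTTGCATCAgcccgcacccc
Fgf21, 139 bases before the start, chr7:45615611-45615640 minus strand: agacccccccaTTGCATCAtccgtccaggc
Asns, 23 bases before the start, chr6:7693214-7693243 minus strand: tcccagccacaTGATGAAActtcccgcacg
Trib3, 14 bases after the start, chr2:152344028-152344057 minus strand: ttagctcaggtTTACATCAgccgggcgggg
Chac1, Herpud1 and Fgf21 held the identical 8 letters TTGCATCA, the element read from the opposite strand.

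The element of XBP1 in the unfolded protein response, searched as TGACGTGG on either strand, was in no member's window, beside 0.714% of all genes. Sesn2, the other member called lower, held neither element, and nor did Atf4, Ddit3 or Xbp1. The 200 bases before the start of both called members are printed for comparison, with the composite element of Chac1 in capitals.
Chac1, chr2:119351042-119351241 plus strand: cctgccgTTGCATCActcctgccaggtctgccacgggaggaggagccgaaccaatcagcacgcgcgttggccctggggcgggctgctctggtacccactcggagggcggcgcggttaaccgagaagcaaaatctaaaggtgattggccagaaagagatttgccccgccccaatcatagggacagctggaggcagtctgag
Sesn2, chr4:132510457-132510656 minus strand: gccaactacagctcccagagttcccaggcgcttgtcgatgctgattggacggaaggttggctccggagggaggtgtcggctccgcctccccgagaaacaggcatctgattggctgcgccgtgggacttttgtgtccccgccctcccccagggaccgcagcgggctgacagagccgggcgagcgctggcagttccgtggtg

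The deleted gene was examined first, because it checks the labels and the orientation of the arrays. Gde5 is listed as Prei4 and has 4 probes. For 3 of them the log2 ratio of Gde5 skKO over WT lay between -2.59 and -3.07 on array 1 and between -3.24 and -3.29 on array 2, which places the lower level in the channel labelled Gde5 skKO under both dye orientations. The probe that stood for the gene gave -0.05 on array 1 and -0.47 on array 2 and was not called. Its WT signal of 6917 and 7610 lay below that of the probes at chr2:132221088-132221147 (13392 and 17840) and chr2:132221110-132221169 (13034 and 15748), and it came first in a log mean that takes in the Gde5 skKO channel. The labelled tissue was borne out by its markers, since all 12 skeletal muscle genes listed were measured, with Myh2 the brightest, and none was called.

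Calls required that the p-value Feature Extraction attaches to a spot's log ratio be under 0.05 on array 1 and on array 2, with the same sign of Gde5 skKO over WT on both. Of all measured genes, 215 (1.58%) were called higher and 235 (1.73%) lower. A further 214 measured genes passed the p threshold on both arrays with opposite signs and were not called. Among the 9 measured members none was higher and Chac1 and Sesn2 were lower. Their median log2 ratio was -0.06, beside 0.01 over all measured genes. The ratios of both arrays had the same sign in 5 of the 9 members, and in 54.5% of all measured genes. Across those genes, which are not independent replicates, the turned ratios of the arrays had a Pearson correlation of -0.0763. A mean log2 ratio within 0.3 of 0 was found in 7 of the 9 members (77.8%) and in 81.8% of all measured genes.

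**Figure D1:**
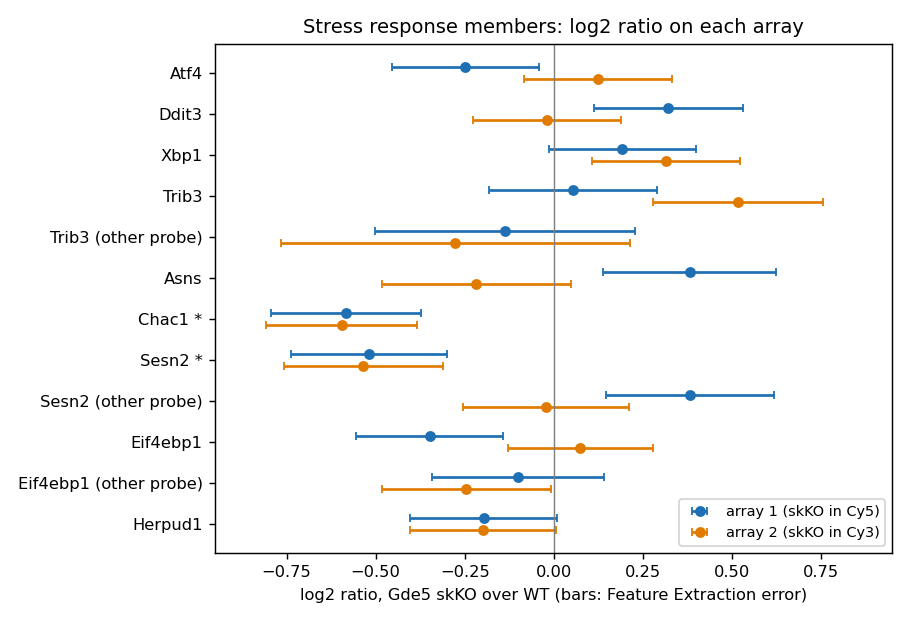
Log2 ratio of Gde5 skKO over WT for the 12 measured probes of 9 members on each of the 2 arrays. Points are 1 array each, bars are the Feature Extraction error of that ratio, and asterisks mark probes called on both arrays; Chac1 and 1 of the Sesn2 probes lie near -0.6 and -0.5 on both arrays, while the remaining probes were not called and reach 0.52 at most, for Trib3 on array 2.

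Chac1 was the member with the clearest difference. It encodes a γ-glutamylcyclotransferase that breaks down glutathione and is among the known targets of ATF4. Its processed signal in WT was 22262 on array 1 and 23336 on array 2, and in Gde5 skKO 14854 and 15448, so both WT values stood above both Gde5 skKO values. The log2 ratio was -0.58 ± 0.21 on array 1 and -0.60 ± 0.21 on array 2 (Feature Extraction error). The mean of -0.59 corresponds to a level 0.665 times that of WT, with a 95% interval of -0.88 to -0.30 on the log2 scale that covers the error of the spots only. Chac1 has a single probe on the arrays, at chr2:119045695-119045754 on the plus strand of mm8. In limma's moderated test across all measured genes the mean log2 ratio of Chac1 was -0.57 ± 0.10 (SE), with an adjusted p of 0.0499, or 0.04 without background correction. That test called 0.302% of genes higher and 0.53% lower after Benjamini-Hochberg adjustment, and Chac1 was the only member among them. With the methods' t-test on the channel values 475 genes were higher and 437 lower before adjustment, Chac1 among the latter, and 0 genes passed after it, with an adjusted p of 0.615 for Chac1.

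Sesn2 was also called lower, but its probes did not behave alike. Sestrin 2 senses leucine and restrains mTORC1 signaling, and its gene responds to ATF4 and to p53. The brighter probe, at chr4:131764135-131764194 on the minus strand of mm8, gave 347 and 318 in WT and 242 and 220 in Gde5 skKO on arrays 1 and 2. Here too both WT values stood above both Gde5 skKO values. The log2 ratio was -0.52 ± 0.22 and -0.53 ± 0.22, a mean of -0.53 with a 95% interval of -0.83 to -0.22. The other probe, which starts 884 bases away at chr4:131765019-131765078, gave 131 and 174 in WT and 171 and 171 in Gde5 skKO. Its log2 ratio was 0.38 on array 1 and -0.02 on array 2, so it was not called, and its channels overlapped. The array annotation ties the lower probe to the cDNA AK170547 and the other to the RefSeq transcript NM_144907. In limma's fit the mean log2 ratio of the lower probe was -0.29 with an adjusted p of 0.402, smaller in size than in the deposited ratios. At an unadjusted p under 0.05, limma called 4.26% of genes higher and 4.3% lower, and Chac1 and Sesn2 were the members among them, both lower.

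**Figure D2:**
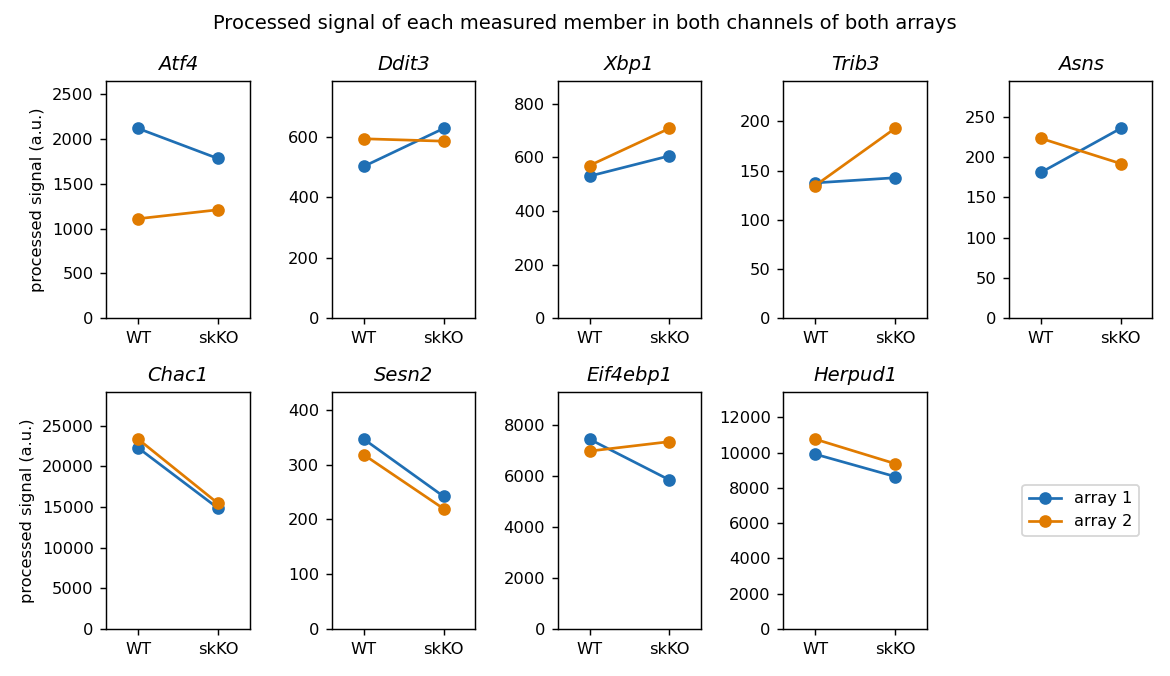
Processed signal (arbitrary units, axes from 0) of the probe standing for each of the 9 measured members in WT and Gde5 skKO, with the 2 arrays in separate colors and each line joining the channels of 1 array. Both lines slope down for Chac1, Sesn2 and Herpud1, of which only the first and second were called, both slope up for Xbp1 and Trib3, and the lines of the other 4 genes slope in opposite directions.

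The transcription factors of the response did not pass the test. Atf4, the central factor, had a processed signal of 2120 in WT and 1784 in Gde5 skKO on array 1, and of 1111 and 1211 on array 2. The arrays thus differed from each other more than the genotypes did, and the log2 ratios of -0.25 and 0.12 pointed in opposite directions. Their mean was -0.06, with a 95% interval of -0.35 to 0.22. Much of the control of ATF4 lies in translation, which these arrays do not measure. Ddit3 encodes CHOP, the factor linked to cell death under prolonged stress. Its signal was 503 and 594 in WT against 628 and 586 in Gde5 skKO, with log2 ratios of 0.32 and -0.02 and an interval of the mean from -0.14 to 0.44. The channels of Ddit3 overlapped.

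Xbp1 had positive ratios on both arrays and passed on neither. Its signal was 530 and 569 in WT and 605 and 708 in Gde5 skKO, so both Gde5 skKO values stood above both WT values. The log2 ratios were 0.19 and 0.31, and the 95% interval of their mean of 0.25 ran from -0.03 to 0.54. No value in these files separates the spliced from the unspliced form of Xbp1.

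Trib3 encodes a pseudokinase that ATF4 and CHOP induce and that dampens Akt. Its brighter probe gave 137 and 135 in WT and 143 and 193 in Gde5 skKO. The log2 ratio was 0.05 on array 1 and 0.52 on array 2, and it passed the p threshold on array 2 only. In limma's loess-normalized ratios the brighter Trib3 probe was at 0.02 and 0.14. The other Trib3 probe, starting 670 bases away, gave -0.14 and -0.28 at signals between 34.5 and 47.7 and was dimmer. In Gde5 skKO on array 2 that probe was not well above background, and the 95% interval of its mean ran from -0.81 to 0.39, so it gave no sign to set beside the brighter probe.

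Among the metabolic targets, Asns, which encodes asparagine synthetase, gave 181 and 223 in WT and 236 and 192 in Gde5 skKO. Its log2 ratios were 0.38 and -0.22, opposite in sign, with an interval of the mean from -0.27 to 0.43. Eif4ebp1 encodes 4E-BP1, which binds the cap-binding factor eIF4E and is both an ATF4 target and a substrate of mTORC1. Its brighter probe gave 7428 and 6962 in WT and 5836 and 7330 in Gde5 skKO, log2 ratios of -0.35 and 0.07. The other probe, 178 bases away, gave -0.10 and -0.25. In limma's loess-normalized ratios the brighter Eif4ebp1 probe was further apart, at -0.76 and 0.42, of opposite sign once both arrays are turned.

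Herpud1, an ER membrane protein that serves the degradation of misfolded proteins, was the target of the ER branch among the members. Its signal was 9916 and 10767 in WT and 8648 and 9381 in Gde5 skKO. The log2 ratio was -0.20 on both arrays, and with an error of 0.20 it passed on neither. The interval of the mean ran from -0.48 to 0.09. Both WT values of Herpud1 stood above both Gde5 skKO values. Fgf21 has 2 probes, and neither was well above background in any channel of either array. No ratio is given for it, and a level of Fgf21 below what the arrays register was not distinguishable from none.

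The closest relatives of the members were 9 genes, all measured and none called. Sesn1 (-0.09 and 0.16) and Sesn3 (-0.04 and -0.20) did not share the ratios of the lower Sesn2 probe, and Chac2, a relative of Chac1 that is not a known stress target, gave log2 ratios of 0.01 and -0.17. Trib1 (-0.11 and 0.22) and Trib2 (0.04 and -0.01), the other Tribbles pseudokinases, lay around 0. Herpud2 gave -0.34 and 0.00, and Eif4ebp2 gave -0.01 and 0.08. Eif4ebp3 had the highest mean of the relatives, 0.33, from 0.30 and 0.35. Atf5, a transcription factor of the same pathway, gave 0.16 and 0.22. In limma's loess-normalized ratios Atf5 was at -0.23 and 0.52, of opposite sign.

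The pathway around the members was then read from 10 lists of 123 genes beside the members, the relatives included, of which 112 were measured. Only Cdkn1a was called higher and only Ddit4 lower, 1.79% of the 112 beside 3.31% of all measured genes. The median log2 ratio of the 112 was 0.04, and 109 of them (97.3%) had a mean within 0.5 of 0, beside 93.9% of all measured genes. Both called genes came from the list of other transcription factors and effectors of the integrated stress response, where they were 2 of 13 measured genes. Gdf15 and Stc2 of that list did not meet the criterion for measured genes.

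Ddit4 encodes REDD1, an inhibitor of mTORC1 that stress, glucocorticoids and energy shortage induce. Its processed signal was 8552 and 8681 in WT and 4786 and 4613 in Gde5 skKO on arrays 1 and 2. The log2 ratio was -0.84 ± 0.22 and -0.91 ± 0.22, a mean of -0.87 with a 95% interval of -1.18 to -0.57, or 0.545 times the WT level. Both WT values of Ddit4 stood well above both Gde5 skKO values. Its adjusted p in limma was 0.0103, and 0.00634 without background correction. Of the members, Sesn2 also restrains mTORC1 and 1 of its probes was lower, and Eif4ebp1, the mTORC1 substrate, was not called.

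Cdkn1a encodes the cell cycle inhibitor p21, which p53 controls and which the stress response can also raise. Its signal was 280 and 286 in WT and 508 and 504 in Gde5 skKO. The log2 ratio was 0.86 ± 0.22 and 0.82 ± 0.22, a mean of 0.84 with a 95% interval of 0.53 to 1.15. The channels of Cdkn1a did not overlap. In limma's fit the mean was 0.51 and the adjusted p was 0.0757, or 0.0517 without background correction. Gadd45a, a DNA damage and stress gene that had the highest mean of that list among genes not called, gave 0.39 and 0.42 and passed the p threshold on array 2 only. The lowest of those not called was Jdp2, at -0.14 and -0.20.

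**Figure D3:**
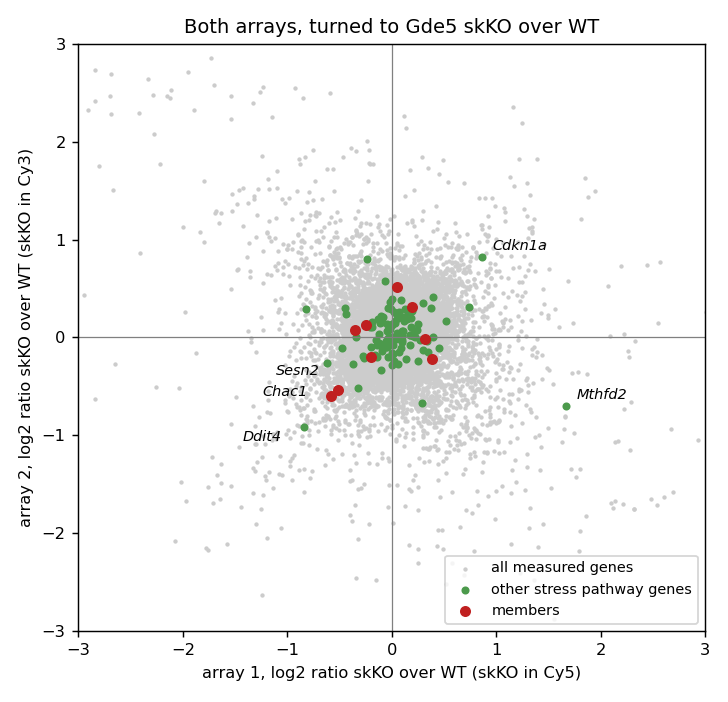
Log2 ratio of Gde5 skKO over WT on array 1 (x axis) against array 2 (y axis), after turning, for measured genes (gray), the 112 other stress pathway genes (green) and the 9 members (red). Chac1, Sesn2 and Ddit4 lie low on both axes, Cdkn1a high on both and Mthfd2 in the corner that follows the dye; 10 genes lie beyond the limits of 3.

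None of the other lists held a called gene. Of the sensors, which are the eIF2 kinases, IRE1 and ATF6, 6 of 7 were measured, Ern1 being the exception, and their means ran from -0.23 (Eif2ak1) to 0.20 (Eif2ak2). The list of eIF2, eIF2B and phosphatase subunits, which also holds Dnajc3, an inhibitor of the eIF2 kinases, had 9 measured genes and stayed between -0.12 (Eif2s2) and 0.14 (Eif2b4). The 18 ER chaperones and foldases were all measured, with a median of 0.07. The lowest of them was Pdia3 at -0.38 and -0.27, and the highest, Ero1a at -0.24 and 0.81, was a dim probe whose sign differed between the arrays.

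ER-associated degradation and translocation had 17 measured genes with a median of -0.01, from -0.14 (Edem3) to 0.20 (Nploc4). The 11 measured genes among other ER stress factors had a median of 0.04. Bcl2, an inhibitor of cell death, was the lowest of these at -0.32 and -0.52, and Mbtps2, a protease that activates ATF6, was the highest at -0.07 and 0.58. Herpud1 therefore stood beside an ER branch in which no measured gene was called in either direction.

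No gene of the amino acid branch was called. The 11 measured cytosolic aminoacyl-tRNA synthetases, many of which are ATF4 targets, had a median of 0.11, from -0.09 (Tars) to 0.24 (Yars). Ratios were positive on both arrays in 8 of them and negative on both in 1. Of all 13579 measured genes, 3968 were positive and 3429 negative on both. None of the synthetases passed the p threshold on either array. Enzymes of serine, one-carbon, proline and sulfur amino acid metabolism were 9 measured genes with a median of -0.07. The lowest, Cth, which makes cysteine, gave -0.62 and -0.27 and passed on array 1 only. Mthfd2, the mitochondrial one-carbon enzyme that ATF4 induces strongly in muscle with mitochondrial disease, gave 1.67 on array 1, where its WT channel was not well above background, and -0.70 on array 2. It passed the p threshold on both arrays in opposite directions, as did 214 of all measured genes. In limma's ratios Mthfd2 was at 0.25 and -0.23. The 10 mitochondrial stress genes had a median of 0.13, from -0.24 (Yme1l1) to 0.52 (Oma1, the protease that relays mitochondrial stress to eIF2, at 0.74 and 0.31).

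**Figure D4:**
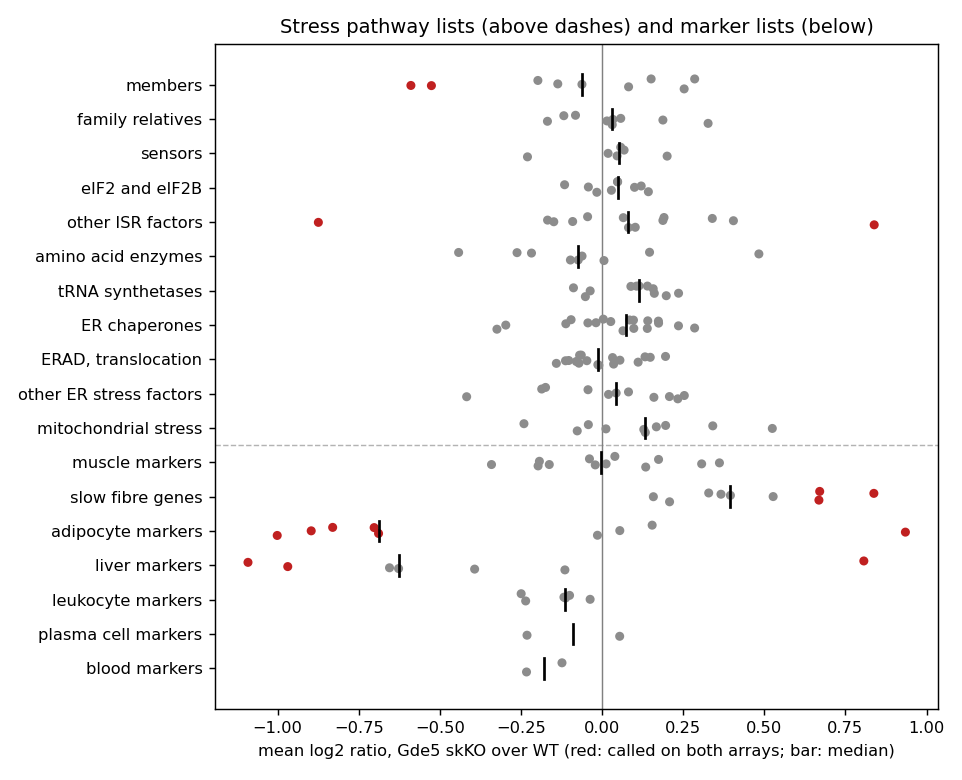
Mean log2 ratio of Gde5 skKO over WT for each measured gene of the stress pathway lists (above the dashed line) and of the cell type and fiber marker lists (below), with red points for genes called on both arrays and black bars for list medians. Called genes above the line are Chac1, Sesn2, Ddit4 and Cdkn1a, and below it 5 adipocyte and 2 liver markers are low, Car3 of the adipocyte list and Apoh of the liver list are high, and 3 slow fiber genes are high.

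Markers of other cells and of fiber type were called in the same hybridizations. The RNA is from whole muscle, where fewer cells of a type and less RNA per cell cannot be told apart. Of 10 adipocyte markers 9 were measured, and Adipoq (-0.97 and -1.03), Cfd (-0.89 and -0.91), Retn (-0.82 and -0.84), Plin1 (-0.80 and -0.57) and Cidec (-0.96 and -0.45) were called lower. Car3, which muscle fibers also express, was called higher at 1.00 and 0.87. Fabp4 was the brightest of the list and lay at 0.13 and -0.02, and Lep was not well above background. The summed signal of the list, to which Car3, Fabp4 and Lpl add most, was 83322 and 86135 in WT and 107128 and 101465 in Gde5 skKO.

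Of 12 liver markers 7 were measured, with Mup1 (-0.99 and -0.95) and Ahsg (-0.95 and -1.23) called lower and Apoh (0.80 and 0.81) called higher. Their summed signal was 3095 and 3007 in WT and 1886 and 1908 in Gde5 skKO, with Mup1 the brightest. Alb, which defines liver, was measured at -1.03 and -0.28 and not called. Cyp2e1 (-0.23 and -1.02), Trf (-0.28 and -0.51) and Fgb (-0.80 and 0.57, of opposite sign) were not called either. No channel had Apoa2 or Apob well above background, while Ttr was so only in WT on array 2 and Apoa1 only in Gde5 skKO on array 1. Of the 9 slow fiber genes Myl2 (0.80 and 0.87), Tnni1 (0.64 and 0.70) and Casq2 (0.58 and 0.76) were called higher. The sum of the slow fiber list was 100867 and 103741 in WT and 143304 and 140370 in Gde5 skKO, with Myl3 the brightest.

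Among secretory and immune cells, which run a strong unfolded protein response of their own, no marker was called. Of the plasma cell markers only Mzb1 (-0.89 and 0.43), the brightest, and Sdc1 were measured. No channel had Jchain, Irf4 or Derl3 well above background, and Prdm1 was so only in Gde5 skKO on array 1. The summed signal of the plasma cell list was 168 and 150 in WT and 119 and 176 in Gde5 skKO. The 6 measured leukocyte markers had a median of -0.12, with Lyz2 the brightest. No channel had Itgam well above background, and Cd68 was so on array 1 only. Their summed signal was 11438 and 11700 in WT and 10622 and 9599 in Gde5 skKO. Of the blood markers Hba-a1 (-0.14 and -0.10), the brightest, and Alas2 (-0.41 and -0.06) were measured, with a sum of 12644 and 12259 in WT and 11386 and 11414 in Gde5 skKO. The part of fat, liver, fiber type or other cells in the values of Chac1, Sesn2, Ddit4 and Cdkn1a was not tested.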

How the data were processed

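GAS muscle RNA of WT and Gde5 skKO mice was compared on 2 dye-swapped Agilent 44K arrays, which lie on 1 slide and come from 1 scan. The authors extracted the scans with Agilent Feature Extraction (version 9.5 in the submitters' processing notes, 9.5.3.1 in the file headers). For every spot, the deposited files hold the background-subtracted and dye-normalized Cy5 over Cy3 ratio as log10, with its error. The authors' files also hold a p-value of that ratio from an error model within the array, and the intensity of spot and local background per channel. The deposited table of the series holds those log10 ratios again.

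All ratios were put on the log2 scale as Gde5 skKO over WT. Control spots, spots with outlier marks (164 and 200 of 43379) and 11 spots of array 1 whose local background was over 2 times their own mean were left out. That last choice was made after values were seen. Spots of a probe were averaged, and the probe of highest mean log signal over all 4 channels stood for a gene, so a gene's own change enters that choice. On array 1, 45.6% of spots were well above background in the WT channel and 53.2% in the Gde5 skKO channel, and on array 2, 47.4% and 44.6%. Probes were named through a RefSeq gene table, 24375 by accession, 6301 by symbol and 2426 by synonym, and 8072 kept the array's name. Probe coordinates are those of mm8 in the files, and promoters are RefSeq's on GRCm38.p6. A 95% interval combines the errors of both arrays with a normal quantile of 1.96.

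The members and gene lists were chosen with earlier results of these data known. Genes were named by rule: all members, Gde5, relatives, called genes of each list with the highest and lowest of those not called, and the called and brightest markers. Mthfd2 meets that rule as the highest of its list. Other markers, such as Cyp2e1, Trf, Alas2, Sdc1 and Lpl, and genes not well above background were named outside that rule. Cross-checks used limma 3.58.1 in R 4.3.3 (normexp, offset 50, loess) and the methods' t-test on channel values; other steps ran in Python 3.11.15 with pandas 2.3.3 and numpy 2.4.6, and plots in matplotlib 3.10.9.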

Additional observations from a re-analysis of the deposited data

How the results depend on the processing

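With 2 arrays, no spread between mice is known, and Fgf21 lies below what the arrays register. Counts that use the Feature Extraction p rest on spot error. Those of limma rest on the spread between the 2 arrays, moderated by the spread of all measured genes. Those of the methods' t-test rest on channel values. A log2 threshold without the p uses no error. The measured members were read under 6 alternatives, Fgf21 under 5, and counts under 15. Added after seeing the data were keeping spots beside debris, keeping spots with outlier marks, the t-test on pathway genes and the alternatives for Ddit4 and Cdkn1a. Chac1 stayed between -0.60 and -0.57, and Ddit4 between -0.91 and -0.83, with neither changing sign. For both genes, only limma's loess ratios could have changed the sign. The single-array values share their sign by the rule of the call. The series table and the mean over all probes repeat the same ratios, as each gene has 1 probe. Sesn2 ran from -0.53 to -0.17, the smallest size being the mean over its probes. Gde5 moved from -0.26 for the probe of highest mean log signal, a mean that the deletion lowers for the others, to -2.33 over all its probes. Of the 2 members called lower, limma with Benjamini-Hochberg adjustment left 1, Chac1, a p under 0.01 left 1, Chac1, and requiring a log2 change of 1 or more, with or without the p, left 0. The methods' t-test called 2 at its threshold, Chac1 and Sesn2, and 0 after adjustment. Of the pathway genes, limma's unadjusted test called 4 higher and 3 lower, the adjusted test 0 higher, the methods' t-test 5 higher (Bbc3, Cdkn1a, Eif4ebp3, Iars and Yars) and 1 lower (Ddit4), with 0 in either direction after adjustment, a mean log2 ratio of at least 1 called 0 in either direction with or without the p, and taking any probe gave 2 higher. Over all genes, limma called 578 higher and 584 lower unadjusted and 41 and 72 adjusted, a p under 0.01 called 107 and 127, a log2 ratio of at least 1 called 38 and 62 with the p and 56 and 76 without it, and the methods' t-test called 475 and 437, or 0 and 0 after adjustment. With a single array no count could fall, since each call had already met the p threshold on both arrays. Members called higher ran from 0 to 1 (Trib3, without array 1), and members called lower were 2 with either array. Pathway genes ran from 3 to 5 higher and from 3 to 4 lower, and all genes from 926 to 971 higher and from 723 to 910 lower. The members' median ran from -0.20 (array 1 alone) to -0.019. Without the filter on dim probes, which adds Fgf21, that median was 0.0096, against -0.06 with it. The cause of these differences was not tested. A block for the slide was not run, since both arrays share it. Every ratio is taken within an array and so is already paired by array. The methods' t-test took the channel values as separate groups, without that pairing.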

Other observations

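Further stress pathway genes passed limma's test at p under 0.05 before adjustment, which the rule over both arrays did not call. In all, 4 of the 112 were higher and 3 lower at that threshold, beside 4.26% and 4.3% of all measured genes, a share no larger than the background. Gadd45a (mean log2 ratio 0.27), Oma1 (0.26) and Dnaja3 (0.33), a mitochondrial J-domain chaperone, were higher, and Bcl2 (-0.25) and Pdia3 (-0.30) were lower. Their adjusted p-values in limma lay between 0.433 (Pdia3) and 0.517 (Bcl2), so none passed the correction. Dnaja3 was named after its values were seen.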
